A study of Nannochloropsis oceanica with 15 samples.

Results

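Described here are 2 stretches of neighbouring genes at scaffold ends that held little RNA in red and in blue light and were active in white light. In Nannochloropsis oceanica IMET1, 29 gene models close scaffold00295 (positions 1075109 to 1137324) and 15 close scaffold00026 (positions 1457258 to 1494702), together 44 of the 9756 models of the deposited annotation. The bounds were chosen on measured values, since they enclose 2 unbroken runs of models that were at least 2-fold lower than in white light in every red and blue group. Every model lying wholly within the bounds was then taken, whatever its level. No model lies beyond either block on its scaffold. All 44 members had at least 1 FPKM (fragments counted on a model per kilobase of its length, relative to a library total) in at least 3 libraries, and so were tested. Of these, 39 reached that level without the white libraries. The other 5 (scaffold00295.g8717 and g1506, g1513, g1516 and g1517 of scaffold00026) reached it only with them. All 5 are kept in the counts of tested members below.

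The species is a marine microalga of single cells, studied for its oil. RNA was sequenced from 15 libraries of the wild-type strain IMET1, 3 per group: 12 h and 24 h after a switch to red light, 12 h and 24 h after a switch to blue light, and white light at 0 h, before the switch. All groups were kept at 25 °C in unbroken light (80 ± 5 µmol of photons per second on a square metre) and were bubbled with air (0.04% CO2). The white libraries used here are all of 0 h, so light colour and hours since the switch cannot be told apart in a comparison with white. Separate cultures are not named for the 3 libraries of a group, and the p-values therefore measure a spread between libraries that may be technical. The values are per unit of bulk RNA, in which fewer cells with a transcript and less of it per cell cannot be told apart.

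The fragments recovered from the values numbered 3130134 to 6442539 per library, and the median FPKM of a model was 17.8 to 25.0. Red 24 h library 1 stood apart, with the lowest median FPKM and the highest sum of FPKM (815138, against 430453 in the lowest library), and it is named below wherever it decides a value.

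The models were predicted with AUGUSTUS, a program that finds genes in genome sequence, per the annotation's source column. Neighbouring genes of a eukaryote can share a chromatin state, and in budding yeast genes placed beside a chromosome end are silenced together. Whether these scaffold ends are chromosome ends is not given in the sources used here. Members are called by the last part of their identifier below, with g8687 to g8717 on scaffold00295 and g1504 to g1519 on scaffold00026. The files pair none of them with a gene name or a function.

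In white light the median members stood at ordinary to high levels. The blocks were chosen as lower than in white, which favours models with RNA in white, so these levels are only a description. The median member of the scaffold00295 block had 50.7 FPKM in white light, a level above that of 76.6% of the tested genes. The median member of the scaffold00026 block had 21.3 FPKM, above 45.4% of them, and the median over all tested genes was 23.8 FPKM. Members ran from 2.93 to 129 FPKM on scaffold00295 and from 4.86 to 83.2 FPKM on scaffold00026.

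Under red and blue light most of that RNA was missing. The FPKM of the 29 members on scaffold00295 summed to 72.8, 58.4 and 62.0 in the red 12 h libraries, 242, 199.5 and 217 in red 24 h, 73.4, 82.8 and 84.3 in blue 12 h, and 97.4, 103 and 99.4 in blue 24 h. In the white libraries the sums were 1369, 1570.5 and 1612. The red 24 h libraries were the highest of the red and blue ones, and even they lay far below white. On scaffold00026 the sums were 15.4, 22.3 and 19.5 in red 12 h, 54.3, 59.5 and 57.6 in red 24 h, 25.0, 20.7 and 20.5 in blue 12 h, and 19.1, 15.1 and 15.2 in blue 24 h. White held 460, 565 and 560.3. In fragments, the scaffold00295 block held 407 to 1674 per red or blue library and 11724 to 15958 per white library. The scaffold00026 block held 170 to 599 per red or blue library and 5815 to 8107 per white library.

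Because these differences from white chose the blocks, they are given as values only. On the log2(FPKM + 1) scale, which understates changes of low genes, the median difference of the 44 members from white was -4.14 after 12 h of red, -2.80 after 24 h of red, -3.79 after 12 h of blue and -3.83 after 24 h of blue. Over all 9601 tested genes the medians were 0.17 and -0.01 after 12 h and 24 h of red, and 0.14 and 0.14 after 12 h and 24 h of blue. All 44 members were at least 2-fold lower and passed at a limma adjusted p of 0.05 in each of the 4 comparisons. Among all tested genes this held for 15.9% after 12 h of red, 16.8% after 24 h of red, 16.5% after 12 h of blue and 14.6% after 24 h of blue, and for 12.3% in all 4 at once. The members closest to the 2-fold bound were g8717 (-1.35) and g8687 (-1.38), both in red 24 h.

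**Figure D1:**
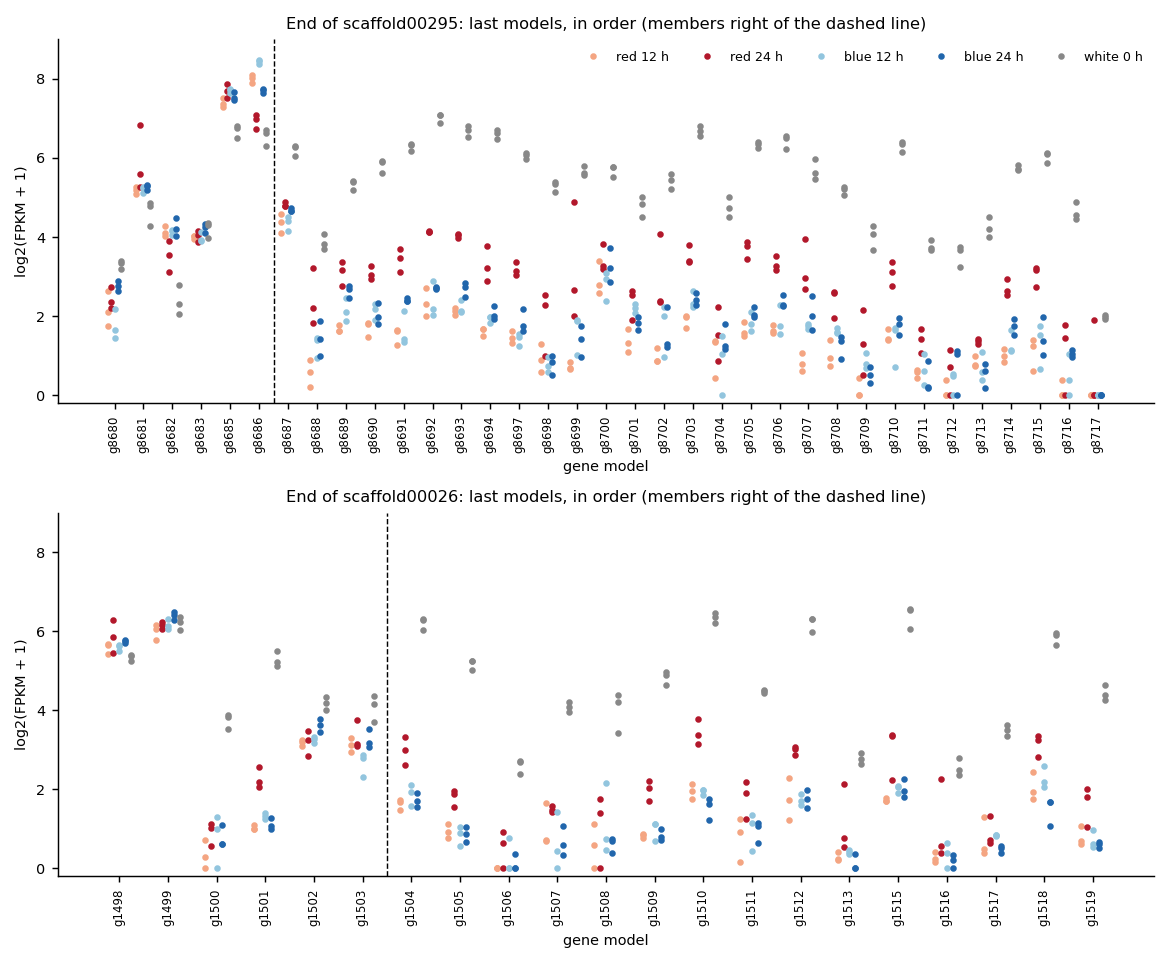
Level of each member and of the tested models before it, as log2(FPKM + 1), in gene order along the ends of scaffold00295 (upper) and scaffold00026 (lower). Each point is a library, coloured by group, and members stand right of the dashed line. The white points of a member lie above its red and blue points, with the narrowest gap at g8717 (2.70 FPKM in a red 24 h library and 2.83 FPKM in the lowest white library).

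The bounds of the scaffold00295 block were set by the 2-fold difference from white. The model next to it had to miss that difference in some group, so its values only describe the edge of the block. The model just outside it, g8686, ends 54 nt before the block and was higher than in white in every red and blue group, with 256 ± 17.6 FPKM (SD, n = 3 here and below) after 12 h of red, 123 ± 15.2 after 24 h of red, 345 ± 13.0 after 12 h of blue and 207 ± 6.79 after 24 h of blue, against 93.0 ± 13.8 in white. The first model inside, g8687, had 22.8, 16.2 and 20.0 FPKM in red 12 h, 28.4, 26.7 and 26.7 in red 24 h, 16.9, 21.6 and 20.3 in blue 12 h, and 24.3, 25.6 and 24.4 in blue 24 h, against 65.1, 76.6 and 77.3 in white. Its groups of red and blue libraries all lay below white, yet it kept more of its white level than any other of the 28 members that had at least 10 FPKM in white, in each of the 4 groups. The next tested models away from the block were not 2-fold lower either. The nearer, g8685, averaged 167 ± 12.8 FPKM after 12 h of red, 207 ± 26.1 after 24 h of red, 208 ± 6.48 after 12 h of blue and 186 ± 13.7 after 24 h of blue, against 102 ± 10.9 in white. The farther, g8683, averaged 14.8 to 17.8 FPKM in the red and blue groups, against 17.6 ± 2.61 in white.

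The bounds on scaffold00026 were set in the same way, and there the 3 tested models just outside the block were lower than in white. The model g1503, 56 nt before the block, had 7.77 ± 1.07 FPKM after 12 h of red, 9.26 ± 2.78 after 24 h of red, 5.38 ± 1.23 after 12 h of blue and 8.64 ± 1.73 after 24 h of blue, against 16.2 ± 3.73 in white, so it kept 33.3% to 57.3% of its white mean. The model before it, g1502, kept 47.3% to 66.3%. The next, g1501, was as low as a member. It had 0.982, 0.975 and 1.14 FPKM in red 12 h, 3.16, 3.56 and 4.91 in red 24 h, 1.39, 1.64 and 1.50 in blue 12 h, and 1.41, 0.984 and 1.09 in blue 24 h, against 33.9, 36.3 and 44.4 in white. Its neighbour g1500, looked at after its values were seen, kept 2.31% to 7.18% of a white mean of 12.4 ± 1.71 FPKM. By order along the scaffold, then, 2 low models, 2 intermediate ones and the 15 members followed each other. Of the 6 tested models nearest to the blocks, 3 on each scaffold, g1501 was the 1 at least 2-fold lower than white, with the test passed, in every red and blue group.

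The last members lie where their scaffolds' models end. The last on scaffold00295, g8717, is the shortest member (278 nt of exon) and the lowest in white. It was listed at 0 in the red 12 h, blue 12 h and blue 24 h libraries and at 0, 0 and 2.70 FPKM in red 24 h, against 2.91, 3.06 and 2.83 FPKM in white. The white values stand for 2 or 3 fragments per library, so its place in the run rests on a few fragments. The last on scaffold00026, g1519, had 0.618, 0.526 and 1.09 FPKM in red 12 h, 1.06, 2.50 and 3.01 in red 24 h, 0.449, 0.944 and 0.538 in blue 12 h, and 0.585, 0.424 and 0.536 in blue 24 h, against 18.0, 24.1 and 19.9 in white. Its white libraries were far above all others.

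The share of white expression that was left was low in most members. Taking each member's FPKM as a percent of its own white mean, over the 28 and 12 members with at least 10 FPKM in white, the scaffold00295 block kept a median of 2.55 ± 0.223% after 12 h of red (mean ± SD of the 3 libraries' medians), 12.0 ± 0.814% after 24 h of red, 3.95 ± 0.674% after 12 h of blue and 4.47 ± 0.246% after 24 h of blue. The scaffold00026 block kept 3.30 ± 0.455% after 12 h of red, 9.65 ± 2.55% after 24 h of red, 3.79 ± 0.436% after 12 h of blue and 3.16 ± 0.580% after 24 h of blue. Between members the spread was wider. Shares of the group means ran from 0.408% to 26.9% in red 12 h and 5.61% to 37.4% in red 24 h on scaffold00295. On scaffold00026 they ran from 2.62% to 7.18% and from 7.12% to 14.0%. Genes elsewhere that also fell in all 4 comparisons kept 12.54% to 12.55% in red 12 h, blue 12 h and blue 24 h and 17.8 ± 3.03% in red 24 h. These shares come from genes chosen on the same differences, and no test of them was made. Red 24 h library 1 gave 6.72% for the scaffold00026 block, against 11.3% and 10.9% in the other 2 libraries of its group, and 14.3% for the other genes, the lowest of the 3.

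**Figure D2:**
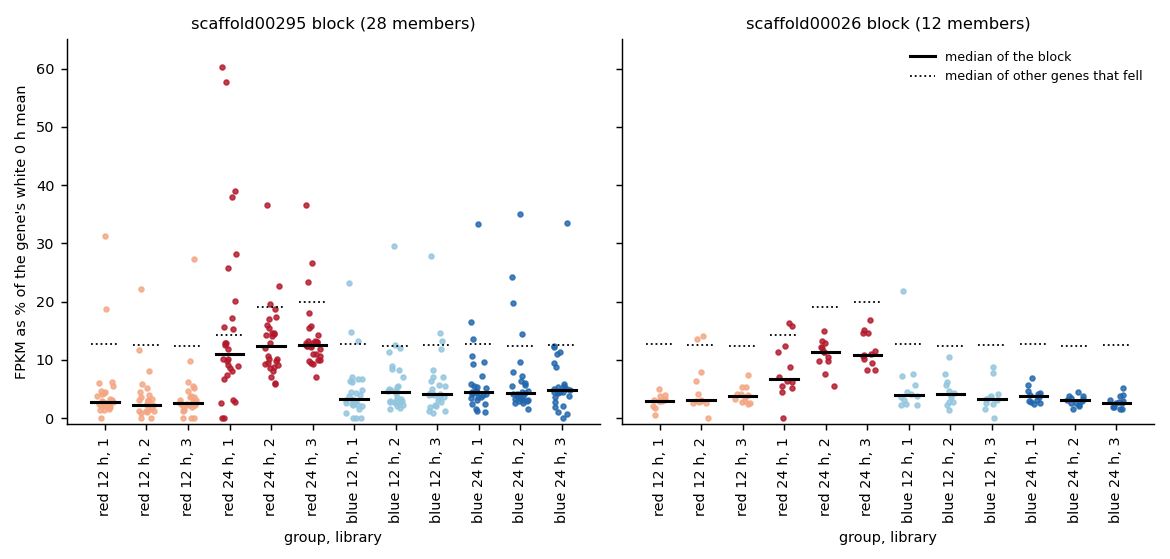
FPKM as a percent of the gene's white mean in each red and blue library, for the members with at least 10 FPKM in white. Points are members, bars are the block's median and dotted lines the median of the other genes that fell in all 4 comparisons: the block medians lie at 2.33% to 4.74% in red 12 h, blue 12 h and blue 24 h and at 6.72% to 12.5% in red 24 h.

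Some of these 28 and 12 members kept more of their white level than most. On scaffold00295, g8687 kept 26.9% after 12 h of red, 37.4% after 24 h of red, 26.9% after 12 h of blue and 33.9% after 24 h of blue. The second highest was g8700 in red 12 h (13.4%) and in blue 24 h (17.7%), g8688 in red 24 h (35.2%) and g8701 in blue 12 h (13.4%). The share of g8688 rests on red 24 h library 1, without which it was 22.6% in g8688 and 36.6% in g8687. The member g8687 is also the one with the most exons, 15, while no other member has more than 5. On scaffold00026 the highest shares among the 12 members with at least 10 FPKM in white were 7.18% in red 12 h (g1507), 14.0% in red 24 h (g1518), 9.54% in blue 12 h (g1508) and 4.48% in blue 24 h (g1511). Those of g1507 and g1508 rest on 1 library each: g1507 kept 3.97% without red 12 h library 2, and g1508 kept 3.36% without blue 12 h library 1.

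The most active members in white show what such shares mean in FPKM. The highest, g8692, a model of 5 exons, had 5.60, 2.98 and 3.94 FPKM in red 12 h, 16.5, 16.5 and 16.8 in red 24 h, 3.04, 3.51 and 6.41 in blue 12 h, and 5.68, 5.56 and 5.45 in blue 24 h, against 117, 135 and 134 in white. Next to it, g8693 had 3.38, 3.08 and 3.62 FPKM in red 12 h, 15.6, 14.7 and 15.7 in red 24 h, 3.34, 3.26 and 4.29 in blue 12 h, and 5.60, 6.09 and 4.56 in blue 24 h, against 90.7, 103 and 111 in white. In both, the red 24 h libraries lay above all other red and blue libraries without overlap. The member g8703 showed the same order, at 3.03, 2.96 and 2.26 FPKM in red 12 h, 9.31, 9.54 and 12.8 in red 24 h, 3.90, 5.17 and 3.66 in blue 12 h, and 4.29, 3.89 and 4.94 in blue 24 h, against 93.1, 102 and 110.2 in white.

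On scaffold00026 the highest member, g1515, had 2.42, 2.26 and 2.26 FPKM in red 12 h, 3.68, 9.44 and 9.22 in red 24 h, 3.14, 3.24 and 2.74 in blue 12 h, and 3.81, 2.85 and 2.47 in blue 24 h, against 65.5, 93.1 and 91.1 in white. Its red 24 h library 1 fell within the range of the blue libraries, while the other 2 were well above. The first member of that block, g1504, had 2.29, 2.19 and 1.80 FPKM in red 12 h, 5.12, 8.94 and 6.96 in red 24 h, 3.29, 1.97 and 2.83 in blue 12 h, and 2.24, 1.92 and 2.73 in blue 24 h, against 64.7, 77.9 and 77.0 in white. All its red 24 h libraries were above the other red and blue ones.

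The members with the largest median difference from white over the 4 comparisons were g8710 and g1512. The first had 1.67, 1.61 and 2.18 FPKM in red 12 h, 5.83, 7.61 and 9.31 in red 24 h, 2.26, 2.12 and 0.634 in blue 12 h, and 1.88, 2.50 and 2.83 in blue 24 h, against 70.1, 83.2 and 81.2 in white. The second had 1.32, 2.29 and 3.90 FPKM in red 12 h, 6.35, 7.17 and 7.33 in red 24 h, 2.24, 2.06 and 2.68 in blue 12 h, and 1.89, 2.38 and 2.93 in blue 24 h, against 62.5, 77.7 and 78.3 in white. The smallest difference on scaffold00026 was that of g1516, a weakly expressed member with 0.112, 0.334 and 0.173 FPKM in red 12 h, 3.78, 0.488 and 0.305 in red 24 h, 0.571, 0.300 and 0 in blue 12 h, and 0.149, 0.269 and 0 in blue 24 h, against 4.13, 4.58 and 5.88 in white. Its value of 3.78 FPKM stands for 14 fragments in red 24 h library 1, where the other 2 libraries of the group had 2 each. On scaffold00295 the smallest difference was that of g8687.

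The ranking of members by level was largely kept. The Spearman correlation across members between the level in a group and the level in white was 0.787 after 12 h of red, 0.833 after 24 h of red, 0.695 after 12 h of blue and 0.768 after 24 h of blue on scaffold00295 (28 members), and 0.755 (blue 12 h) to 0.930 (blue 24 h) on scaffold00026 (12 members). Members share libraries and lie side by side, so these are descriptions. The share left was lower toward the end of scaffold00295, with correlations with position of -0.582 (red 24 h) to -0.428 (blue 12 h). On scaffold00026 those correlations were 0.0559 (blue 12 h) to 0.371 (red 12 h).

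The comparisons without white libraries were not used to choose the blocks, though the red and blue libraries in them were. They were tested with limma over all 9601 genes, and the first asks whether the 2 colours differed after 12 h. No member passed in blue 12 h against red 12 h, where 0.719% of all tested genes were higher and 2.04% lower. At an unadjusted p under 0.05, 8 members were higher in blue and 0 lower, all 8 on scaffold00295, against 5.32% of all tested genes higher and 8.50% lower. The lowest limma adjusted p was 0.0507, for g8701, which passed with the replicate number as a block (0.0368). That member averaged 3.58 ± 0.353 FPKM in blue 12 h and 1.60 ± 0.525 FPKM in red 12 h. The 44 members had a median log2 difference of 0.20, with 32 above 0, against a median of -0.01 over all genes. In 11 members (10 on scaffold00295) all blue 12 h libraries were above all red 12 h libraries, a share near the 19.9% of all tested genes and so no result about the blocks. The count of members that passed was 1 to 5 under 9 of the 22 other settings and 7 without red 24 h library 1.

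Between 12 h and 24 h of red light most members rose. In red 24 h against red 12 h, 33 of the 44 members rose (23 on scaffold00295 and 10 on scaffold00026) and 0 fell, while 12.8% of all tested genes were higher and 15.8% lower. The 33 include g1513, which reached 1 FPKM in 3 libraries only with white. It had 3, 1 and 1 fragments in red 12 h and 13, 3 and 3 in red 24 h. The median log2 difference was 1.59 on scaffold00295, 0.86 on scaffold00026 and 1.21 over both blocks, against -0.08 over all genes, and all 44 members lay above 0. As a ratio of mean FPKM, red 24 h over red 12 h had a median of 4.29 over 28 members on scaffold00295 and 2.86 over 12 members on scaffold00026. In 32 members, g1513 among them, all red 24 h libraries were above all red 12 h libraries, against 18.3% of all tested genes. The direction was shared by the other genes that fell in all 4 comparisons. Their median share of white was 12.55 ± 0.20% in red 12 h and 17.8 ± 3.03% in red 24 h. In blue it was 12.55 ± 0.15% at 12 h and 12.54 ± 0.17% at 24 h.

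Named by their size among the members that passed, 3 lie on scaffold00295. The largest difference was in g8699, with 28.8, 3.00 and 5.36 FPKM in red 24 h, against 0.789, 0.589 and 0.611 in red 12 h (log2 difference 2.46 ± 0.51 SE, limma adjusted p = 0.00421). Its size rests on red 24 h library 1, without which the difference was 1.60 (adjusted p = 5.07e-05). The difference no longer passed when the fit held only the 6 libraries compared (adjusted p = 0.117). In g8707 the red 24 h libraries had 14.3, 5.42 and 6.77 FPKM, against 0.713, 0.535 and 1.11 in red 12 h, where the values stand for 1 or 2 fragments (log2 difference 2.37 ± 0.28, limma adjusted p = 6.54e-05). In g8705 they had 13.7, 12.7 and 9.85 FPKM, against 1.95, 2.62 and 1.81 in red 12 h (log2 difference 2.06 ± 0.16, limma adjusted p = 1.67e-06). The groups do not overlap in any of the 3 genes. The differences of g8707 and g8705 passed under all 22 other settings. Without red 24 h library 1 they were nearly level, at 2.00 in g8707 and 1.97 in g8705.

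The 11 members that did not pass were mostly weakly expressed. They had a median of 5 fragments over the 3 red 12 h libraries together and 15.7 FPKM in white, against 50 fragments and 55.5 FPKM for the 33 that passed. Their log2 differences ran from 0.18 in g1517 to 0.94 in g8716. The most expressed of them in white, g8700, stood at 9.92 ± 2.76 FPKM in red 24 h and 6.81 ± 2.40 FPKM in red 12 h (log2 difference 0.50 ± 0.27, limma adjusted p = 0.157), against 50.7 ± 5.07 in white.

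Without red 24 h library 1, 37 members rose. Its summed FPKM was the highest of the 3 on scaffold00295 and the lowest of the 3 on scaffold00026. Within the blocks it was more uneven than the other 2 libraries: 6 members (g8688, g8699, g8702, g8707, g1513 and g1516) had over 2 times the FPKM there that they had in either other library, and in 9 others both of those libraries had over 2 times its FPKM. With only the 6 libraries compared in the fit, 17 members rose.

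Of the 3 tested models just outside the scaffold00295 block, none passed as higher. The neighbour g8686 was lower in red 24 h than in red 12 h, at 126, 136 and 106 FPKM against 273, 259 and 238 (log2 difference -1.06 ± 0.12, limma adjusted p = 5.39e-05). The next, g8685, averaged 207 ± 26.1 FPKM in red 24 h and 167 ± 12.8 FPKM in red 12 h (0.30 ± 0.12, adjusted p = 0.0668). The farthest, g8683, had 13.7, 16.9 and 15.6 FPKM in red 24 h, against 15.2, 14.5 and 15.4 in red 12 h (0.03 ± 0.14, adjusted p = 0.896). Outside scaffold00026, the low model g1501 rose like a member (1.25 ± 0.16, adjusted p = 0.000146), and g1502 between it and the block stood at 8.25 ± 1.98 FPKM in red 24 h and 8.08 ± 0.427 FPKM in red 12 h (0.00 ± 0.16, adjusted p = 0.984).

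In blue light 1 member passed as higher and 1 as lower between the hours. In blue 24 h against blue 12 h, 4.48% of all tested genes were higher and 2.76% lower. The counts of members are near those shares and so are no result about the blocks. The median log2 difference over the 44 members was 0.02, and 23 lay above 0. The blocks leaned in different directions, with medians of 0.24 on scaffold00295 and -0.14 on scaffold00026. Summed FPKM on scaffold00295 was 97.4 to 103 in blue 24 h and 73.4 to 84.3 in blue 12 h. On scaffold00026 it was 15.1 to 19.1 in blue 24 h and 20.5 to 25.0 in blue 12 h. The higher member was g8691, with 4.53, 4.20 and 4.25 FPKM in blue 24 h, against 3.38, 1.67 and 1.52 in blue 12 h (log2 difference 0.78 ± 0.21 SE, limma adjusted p = 0.0318). The lower one was g1518, with 2.21, 2.18 and 1.10 FPKM in blue 24 h, against 3.18, 3.54 and 4.98 in blue 12 h (-0.80 ± 0.23, adjusted p = 0.0460). In both the groups do not overlap. Neither call was firm: g8691 passed in 17 and g1518 in 9 of the 22 other settings, with adjusted p values up to 0.150 and 0.222. Both lost the call without blue 12 h library 2 (0.138 and 0.101) or 3 (0.150 and 0.203), and without any 1 of the blue 24 h libraries.

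At 24 h most members were lower in blue light than in red light. In blue 24 h against red 24 h, 28 members were lower (19 on scaffold00295 and 9 on scaffold00026) and 0 higher, while 6.34% of all tested genes were lower and 5.67% higher. The median log2 difference was -0.997 over the 44 members, with 43 below 0, and 0.08 over all genes. As a ratio of mean FPKM, blue 24 h over red 24 h had a median of 0.362 on scaffold00295 and 0.333 on scaffold00026. In 33 members (21 and 12) all blue 24 h libraries were below all red 24 h libraries, against 13.9% of all tested genes. The 12 include g1513, g1516 and g1517, which reached 1 FPKM in 3 libraries only with white. In g1516 that order rests on 1, 2 and 0 fragments in blue 24 h and 14, 2 and 2 in red 24 h. The comparisons of red 24 h with red 12 h and of blue 24 h with red 24 h share the red 24 h libraries.

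The member with the largest difference was g1510, with 2.40, 1.32 and 2.10 FPKM in blue 24 h, against 12.7, 7.86 and 9.32 in red 24 h (log2 difference -1.89 ± 0.18 SE, limma adjusted p = 3.39e-05). In the other groups it had 2.36, 3.39 and 2.91 FPKM in red 12 h, 2.93, 2.94 and 2.63 in blue 12 h, and 72.5, 81.5 and 87.2 in white. It passed under all 22 other settings. The next was g8699, with 2.35, 1.66 and 0.956 FPKM in blue 24 h, against its uneven 28.8, 3.00 and 5.36 in red 24 h (-1.82 ± 0.51, adjusted p = 0.0339). Without red 24 h library 1 that difference was -0.96 (adjusted p = 0.0100), and it no longer passed without any 1 of the blue 24 h libraries (0.0664 to 0.121), under quantile normalization (0.0579) or with only the 6 libraries compared (0.315). The third was g1518, with 2.21, 2.18 and 1.10 FPKM in blue 24 h, against 9.24, 8.48 and 6.07 in red 24 h (-1.67 ± 0.23, adjusted p = 0.000422). It was lost with only the 6 libraries compared (0.0578), a fit in which 4 members passed in all.

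Some members did not pass the test between the colours at 24 h. The first member, g8687, had 24.3, 25.6 and 24.4 FPKM in blue 24 h, against 28.4, 26.7 and 26.7 in red 24 h (log2 difference -0.14 ± 0.14, limma adjusted p = 0.490). Its difference was small, though all its blue 24 h libraries lay below its red 24 h libraries. The 1 member above 0 was g8712, with 0.738 ± 0.641 FPKM in blue 24 h and 0.610 ± 0.597 FPKM in red 24 h, where some libraries were listed at 0.

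Whether the change over time differed between the colours was tested as an interaction, the 24 h minus 12 h difference in blue light less that in red light. It was negative in 43 of 44 members, and 17 passed (13 on scaffold00295 and 4 on scaffold00026), all lower, where 1.54% of all tested genes were lower and 0.740% higher. The median was -1.20 over the 44 members and 0.10 over all genes. By their median share of white, the other genes that fell in all 4 comparisons also rose in red and not in blue. In these 17 the red change was above 0 in 17 and the blue change below 0 in 7. The largest among those that passed were g8707 (-2.06 ± 0.40 SE, limma adjusted p = 0.0131), g1518 (-1.90 ± 0.32, adjusted p = 0.00536) and g1510 (-1.88 ± 0.26, adjusted p = 0.00139), and all 3 passed under the 22 other settings. In g8707 the blue libraries had 4.71, 2.13 and 3.01 FPKM at 24 h, against 2.46, 2.38 and 2.19 at 12 h. Its red 24 h level was highest in library 1 (14.3 FPKM, against 5.42 and 6.77 in the others). In g1518 the red libraries had 9.24, 8.48 and 6.07 FPKM at 24 h, against 2.78, 4.45 and 2.36 at 12 h, while white stood at 49.1, 59.3 and 61.0. Without red 24 h library 1, 31 members passed.

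**Figure D3:**
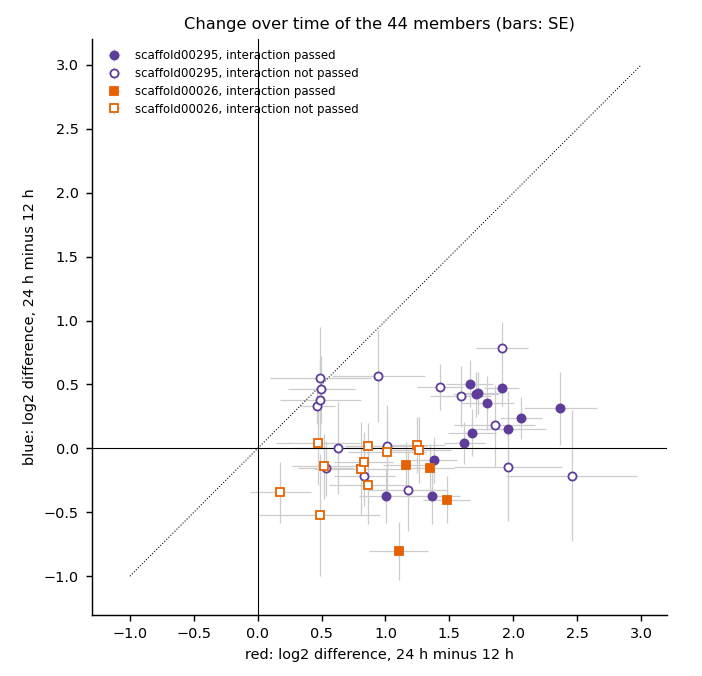
Log2 difference of 24 h minus 12 h in blue light (vertical axis) against that in red light (horizontal axis) for the 44 members, with standard errors from the fit, and the dotted line where both are equal. Filled symbols are the 17 members whose interaction passed, and all of these lie right of 0 and below the line, with blue changes from -0.80 to 0.51.

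Single-exon models were more frequent in the scaffold00295 block than in the rest of the annotation. There 20 of 29 members have a single exon (69.0%), against 37.3% on the rest of that scaffold. On scaffold00026 they were 6 of 15 (40.0%), near the 34.1% on the rest of it, and its median of 2 exons is that of all models. Over both blocks the share was 59.1% (26 of 44). It was 31.0% among the other 1141 genes that fell in all 4 comparisons and 30.8% among all models. The last 15 models of the other 31 scaffolds with at least 50 tested genes go the other way, with 21.3% single-exon models and a median of 4 exons. No test of these shares was made, since neighbouring models are not independent of each other.

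**Figure D4:**
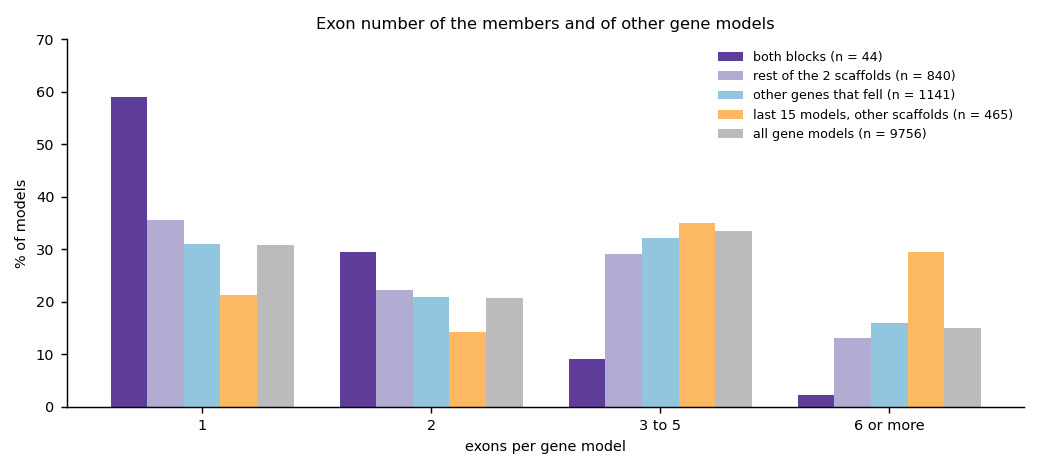
Share of gene models (vertical axis, %) by number of exons (horizontal axis) in both blocks, on the rest of scaffold00295 and scaffold00026, among the other genes that fell in all 4 comparisons, among the last 15 models of other scaffolds and among all models. Models with 1 or 2 exons make up 59.1% and 29.5% of both blocks together, against 30.8% and 20.7% of all models.

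The blocks also held more models per 10 kb than the rest of the scaffolds, at 4.66 against 3.34 on scaffold00295 and 4.01 against 3.30 on scaffold00026. The exons of members cover 64.2% of the 62.2 kb of the first block and 74.5% of the 37.4 kb of the second. Gaps were not shorter than elsewhere. The median gap between neighbouring members was 134 nt on scaffold00295 and 245 nt on scaffold00026, and 124 nt over all models. The longest was 5565 nt, between g8690 and g8691. The strand changed in 15 of 28 neighbouring pairs on scaffold00295 and in 4 of 14 on scaffold00026, so neither block is a run of genes read in 1 direction. The counting is not stated to use strand, so reads of overlapping transcripts from opposite strands cannot be told apart.

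The ends of the other scaffolds held fewer genes of this kind. Of the last 15 tested genes, 15 fell at least 2-fold and passed in all 4 comparisons on scaffold00026 and on scaffold00295, as their choice requires. On the 31 other scaffolds with at least 50 tested genes the median was 3 of 15, and the highest was 11, on scaffold00082. At the opposite end, among the first 15 tested genes, the median was 2, and the highest of all 33 scaffolds was 11, on scaffold00259. Away from the blocks, 42 of 349 tested genes fell on scaffold00295 and 59 of 474 on scaffold00026, against 12.3% of all tested genes.

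**Figure D5:**
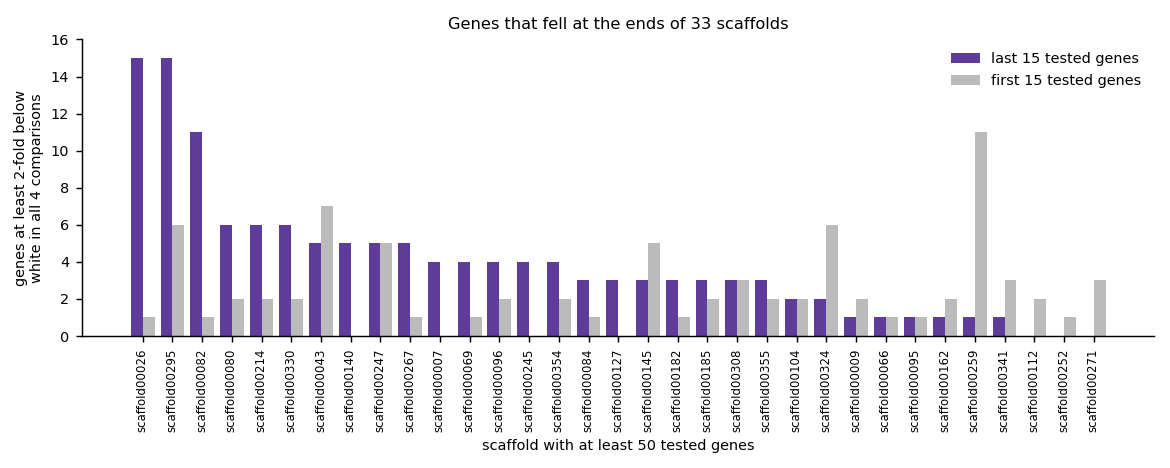
Number of genes (vertical axis) that fell at least 2-fold and passed in all 4 comparisons with white among the last 15 and the first 15 tested genes of each of the 33 scaffolds with at least 50 tested genes (horizontal axis). Both chosen blocks reach 15, the next closing stretch reaches 11, and 18 of the 31 other scaffolds have at most 3 at their end.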

How the data were processed

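Per the labels' protocols, Trizol was used to extract the RNA, and a TruSeq kit turned 1 µg of it into each library. The authors deposited FPKM per gene model, with 1 table for each group, and the exons of 9756 models on 284 scaffolds. Cufflinks 2.0.4, TopHat2 2.0.4 and TopHat were used, per the submitters' processing notes. The genome build and settings are not given in the sources used here, so coordinates are those of the deposited models, and reads that map to several places may be shared out in a way that is not stated. In the red 12 h table a column name is repeated, and the third library was read by its position through the sample name in the same rows. None of the 160 reference genes at hand matched a model.

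The values computed here are as follows. FPKM was tested as deposited, on log2(FPKM + 1), with limma 3.58.1 in R 4.3.3 (lmFit, contrasts and eBayes with a trend, two-sided). A single fit held all 15 libraries, each group with its own mean, over the 9601 models with at least 1 FPKM in at least 3 libraries, and p-values were adjusted by Benjamini-Hochberg over these at a threshold of 0.05. The fit was tested on simulated data. A fall means at least 2-fold lower than white and past the threshold. Python 3.11.15, numpy 2.4.6 and pandas 2.3.3 made the other values.

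FPKM times the exon length less the library's mean fragment length (129 to 147.5 nt) gave whole fragments for 100% of the 360 to 1886 values checked per library, within 0.1 fragments. These recovered fragments give the depth, and the added fit with voom. Precision at low FPKM is that of the few fragments behind it.

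The members and lists were chosen with earlier results of these data known. Values in every library are given for the first and last member of each block, the 3 with the highest white mean, those with the largest and smallest median difference from white, up to 3 per direction and test by size, and the 3 tested models just outside each block's inner edge. Groups follow the labels. Other settings were a pseudocount of 0.1, no filter, quantile normalization, scaling to the same median, a replicate block, only the groups compared, leaving out each library, and, chosen after seeing the data, voom on recovered fragments. Replicate numbers were not used as a block in the main fit.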

Additional observations from a re-analysis of the deposited data

Results flagged for a closer look

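In 17 members the change from 12 h to 24 h differed between blue and red light by the interaction test (limma adjusted p under the 0.05 threshold). Each value here is the log2 difference of 24 h minus 12 h in blue light less that in red light. On scaffold00295 it was -2.06 in g8707, -1.82 in g8705, -1.81 in g8715, -1.74 in g8708, -1.57 in g8703, -1.55 in g8694 and -1.47 in g8690. It was -1.44 in g8692, -1.44 in g8693, -1.38 in g8701, -1.29 in g8697, -1.28 in g8714 and -1.15 in g8706. On scaffold00026 it was -1.90 in g1518, -1.88 in g1510, -1.50 in g1504 and -1.29 in g1509. The adjusted p values ran from 0.000956 in g8705 to 0.0353 in g8715. All 17 share the red 24 h libraries, in which all 17 were higher than in red 12 h.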

How the results depend on the processing

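Counts of members that passed moved most with the libraries in the fit. With only the groups compared they were 5 in blue 12 h against red 12 h (0 in all 15 libraries), 4 in blue 24 h against red 24 h (28), 17 in red 24 h against red 12 h (33) and 4 in blue 24 h against blue 12 h (2). Leaving out 1 library gave 0 to 7 in the first, 20 to 30 in the second, 27 to 37 in the third and 0 to 6 in the fourth of these comparisons and 14 to 31 for the interaction (17). The highest of the first, the fourth and the interaction came without red 24 h library 1, and the 0 of the fourth without blue 12 h library 2 or 3 or any 1 blue 24 h library. In blue 12 h against red 12 h, 2 members passed with a pseudocount of 0.1, 2 under quantile normalization, 2 at the same median and 1 without the filter. With the replicate number as a block, 1 member passed there and 1 in blue 24 h against blue 12 h. That fit changed 5 calls of members over the 5 tests. It gained g8701 in blue 12 h against red 12 h (adjusted p = 0.0368), g8716 in red 24 h against red 12 h (0.0387) and g1512 for the interaction (0.0206). It lost g8702 in blue 24 h against red 24 h (0.0594) and g1518 in blue 24 h against blue 12 h (0.0515). The labels do not say that a number marks a culture, and the design text has samples drawn from each column without tying numbers to columns. Deviations of same-numbered libraries from their group means correlated at -0.0625 to 0.147. Between red 12 h and red 24 h, 2 of 3 numbers were over 0.1 (0.147 and 0.130), and every library correlated best with its own number in 1 of 10 pairs of groups, blue 24 h with white.

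The median log2 differences of members from white kept their sign under every setting run. In red 12 h (-4.14) they were -5.00 with the pseudocount of 0.1, -3.97 under quantile normalization and -5.18 with voom. In red 24 h (-2.80) they were -3.12, -2.68 and -3.29, and -2.69 at the same median. In blue 12 h (-3.79) they were -4.73, -3.60 and -4.81, and in blue 24 h (-3.83) -4.60, -3.70 and -4.77. Leaving out 1 library gave -4.22 to -4.09 in red 12 h, -2.88 to -2.72 in red 24 h, -3.90 to -3.76 in blue 12 h and -3.90 to -3.77 in blue 24 h. The pseudocount of 0.1 shrinks the differences of low values less than the addition of 1 in the main fit does. The cause of the other shifts was not tested. Scaling to the same median moved the median over all genes in red 24 h against white to 0.13, as against -0.01, and in red 24 h against red 12 h to 0.07, as against -0.08. Scaling also moved the split of calls over all genes. At the same median 303 were higher and 312 lower in blue 12 h against red 12 h (69 and 196 as deposited), 2041 and 1455 in red 24 h against red 12 h (1233 and 1518), and 602 and 578 in blue 24 h against blue 12 h (430 and 265). With voom 962 were higher and 2315 lower in red 24 h against red 12 h, 1174 and 584 in blue 24 h against red 24 h (544 and 609 as deposited), and 202 and 139 for the interaction (71 and 148). Under every setting run, 0 members passed as higher in blue 24 h against red 24 h or for the interaction, and 0 passed as lower in red 24 h against red 12 h. The 11 members that did not pass in red 24 h against red 12 h had a median of 5 fragments over the 3 red 12 h libraries, though others with as few passed (g8707, with 2, 1 and 2), and the part of depth in these calls was not tested.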
